A study of Homo sapiens with 6 samples.

Results

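The EGF-family ligands and their ERBB partners were followed in U251, an established human glioma cell line, with and without sevoflurane (Sev), a volatile anesthetic gas. The 10 genes were taken by symbol through their Ensembl identifiers, out of 61496 features in the deposited tables. They were 6 ligand genes (HBEGF, AREG, EREG, TGFA, BTC and NRG1), 2 receptor genes (ERBB2 and ERBB3) and 2 genes of receptor inhibitors (ERRFI1 and LRIG1). Each had 1 row, and 9 passed the filter on low counts and were tested, the exception being AREG. The untreated control group and the group kept under Sev for 2 h had 3 libraries each. Both groups grew in DMEM with 10% FBS, and the paper names no other medium for the exposure. The labels name 3 Sev concentrations, 1.7%, 3.4% and 5.1%, for the experiment without assigning one to a library, and the paper's volcano plot of these data is labelled with the highest of them. The libraries come from a single cell line, and nothing in the labels says that those of 1 group came from separate cultures, so the p-values measure the spread between these libraries, which may be technical. The methods of the study speak of independent experiments for quantitative data in general, without naming the sequencing.

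EGF-family ligands are made as membrane proteins whose outer part is cut off by metalloproteases and then binds receptors on the same or nearby cells. HBEGF, AREG, EREG, TGFA and BTC bind the EGF receptor, while NRG1 binds ERBB3 and ERBB4. ERBB2 has no known ligand of its own and works as the preferred partner in receptor pairs, and ERBB3, whose kinase is weak, depends on such a partner. Receptor signals run through RAS and the MAPK cascade, which also switches on genes that damp the signal. ERRFI1, also called MIG6, is one of these and blocks the kinase of the receptors, while LRIG1 is a membrane protein that promotes receptor degradation. Gain of the EGF receptor gene is a hallmark of many gliomas.

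The stretches before the start sites of 4 members are shown because 3 of these genes (HBEGF, EREG and ERRFI1) were higher in Sev and the fourth, AREG, had no count in any library. They are RefSeq sequences on GRCh38.p14, read in the direction of the gene, up to 250 bases before the RefSeq start and without bases inside the gene of GENCODE 29. Capitals mark matches, on either strand, to any of 6 motifs. The cAMP response element (CRE) was searched as TGACGTCA and the AP-1 site as TGANTCA. The TATA motif was searched as TATAAA, which is found in many promoters with a fixed start. The GC box, to which Sp1 binds, was searched as GGGCGG. The E-box of MYC and related factors was searched as CACGTG, and the CARE, an element bound by ATF4 with C/EBP proteins, as TGATGCAA. In HBEGF the GC boxes at 63 and 58 bases overlap.
HBEGF, chr5:140346632-140346853, minus strand: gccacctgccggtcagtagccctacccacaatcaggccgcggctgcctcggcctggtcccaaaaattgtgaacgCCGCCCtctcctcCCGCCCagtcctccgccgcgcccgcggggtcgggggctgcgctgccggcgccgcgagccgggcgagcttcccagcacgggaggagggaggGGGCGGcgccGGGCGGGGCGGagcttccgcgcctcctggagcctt
EREG, chr4:74364895-74365142, plus strand: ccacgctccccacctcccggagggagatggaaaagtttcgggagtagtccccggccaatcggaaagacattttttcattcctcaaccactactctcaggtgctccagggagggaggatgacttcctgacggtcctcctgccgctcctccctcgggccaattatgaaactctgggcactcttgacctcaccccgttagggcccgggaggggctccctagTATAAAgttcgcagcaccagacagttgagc
ERRFI1, chr1:8026310-8026559, minus strand: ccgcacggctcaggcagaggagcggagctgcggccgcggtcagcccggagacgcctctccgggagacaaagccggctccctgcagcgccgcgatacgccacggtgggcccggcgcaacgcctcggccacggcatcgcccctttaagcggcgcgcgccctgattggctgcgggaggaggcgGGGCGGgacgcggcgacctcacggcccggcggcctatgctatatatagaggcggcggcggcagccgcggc
AREG, chr4:74444886-74445133, plus strand: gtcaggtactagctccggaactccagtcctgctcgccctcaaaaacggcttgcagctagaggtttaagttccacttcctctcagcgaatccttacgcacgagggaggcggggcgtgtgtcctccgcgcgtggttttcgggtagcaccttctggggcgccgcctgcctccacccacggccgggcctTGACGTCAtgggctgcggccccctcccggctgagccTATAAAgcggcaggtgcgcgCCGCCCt

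The motifs were searched in the 250 bases before the RefSeq start, of which the printed stretches can be shorter. HBEGF held 5 GC boxes, at 58 to 176 bases before the start, and ERRFI1 held 1, at 70 bases. GC boxes were also found in LRIG1, in AREG and in TGFA, which was lower in Sev. A GC box was found in 42.6% of 35116 promoters searched over the same 250 bases. EREG had a TATA motif 32 bases before its start, and AREG had one at 29 bases, against 10.7% of all promoters. The CRE of AREG, 65 bases before the start, was the only full CRE among the 8 members with a sequence in the table, and 1.65% of all promoters held one. None of the 8 held an E-box or a CARE, and ERBB2 alone held an AP-1 match, 222 bases before its start. These are matches of letters and say nothing of which factors were bound.

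In Sev-treated cells the transcripts of 2 ligand genes, HBEGF and EREG, and of the receptor inhibitor ERRFI1 rose, and that of the ligand TGFA fell. BTC, NRG1, ERBB2, ERBB3 and LRIG1 did not pass the test. EREG entered the test through its Sev libraries alone, so its call supports nothing beyond its own counts, and it could not be tested with at least 10 counts required in every library. A gene is said to rise or fall where its adjusted p-value was under 0.05 (edgeR's quasi-likelihood test on the counts, Benjamini-Hochberg adjustment over 27514 tested features). Of all tested features 22.1% rose and 21.5% fell by this rule, 43.7% in all, so 4 changed members of 9 tested were near the background. For the 6 of the 9 whose groups did not overlap, the background was 56.5%. Among protein-coding features alone 45.9% changed. The methods of the study ask instead for a log2 fold change above 1 and a p-value below 0.05. This was read here as a rule on the absolute log2 fold change and the unadjusted p-value. By that rule HBEGF and EREG were higher and no member was lower, against 11.4% higher and 12.0% lower among all features, 23.5% in all. The median log2 fold change of the 9 members was −0.13, and that of all features was −0.0056. The values below are CPM, in which a count is divided by the size of its library after edgeR's TMM scaling. They do not correct for gene length and are compared only within a gene.

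**Figure D1:**
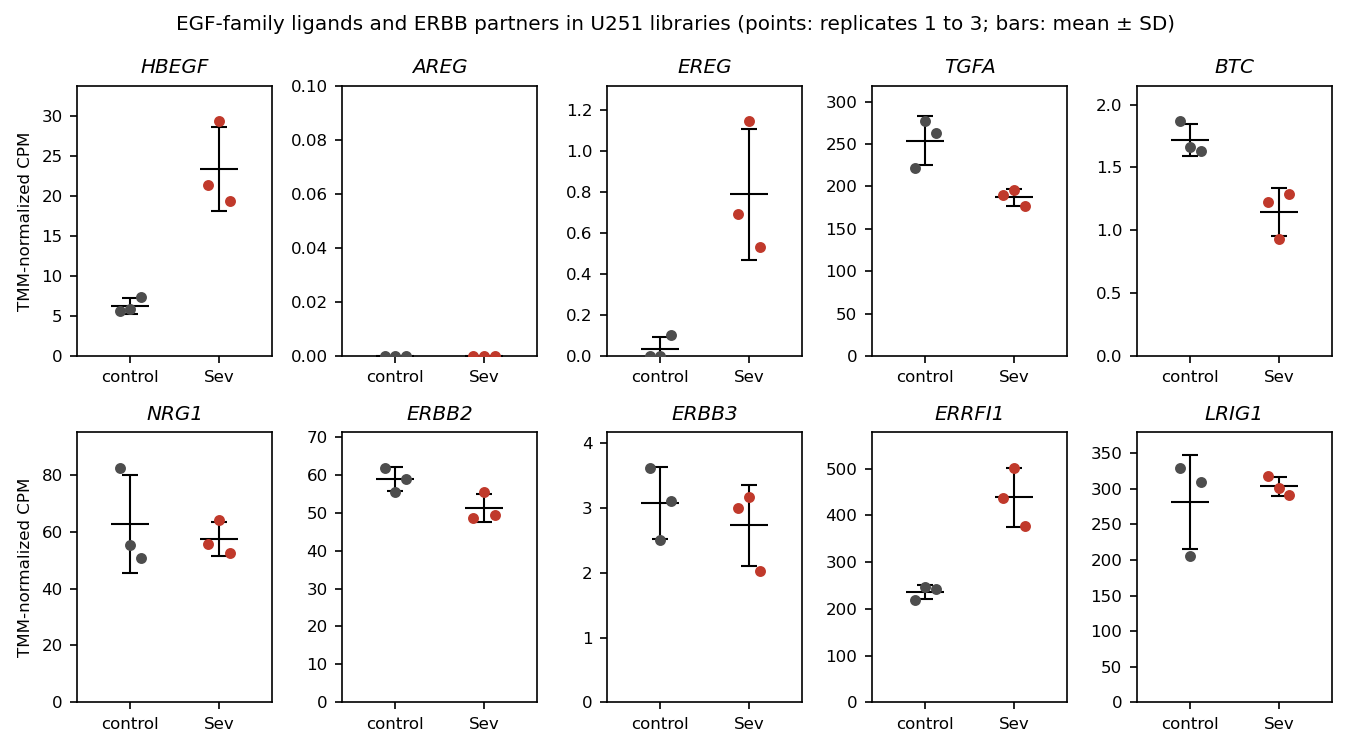
Normalized counts of the 10 members in each library (y axis, TMM-normalized CPM, starting at 0, each gene on its own scale). Points are replicates 1 to 3 from left to right and bars are mean ± SD. The Sev libraries of HBEGF, between 19.5 and 29.4 CPM, all lie above the control libraries, between 5.58 and 7.37 CPM, while the groups of NRG1, ERBB3 and LRIG1 overlap.

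HBEGF (ENSG00000113070, chromosome 5, 140332843 to 140346631, minus strand, GENCODE 29 on GRCh38) encodes a heparin-binding ligand of the EGF receptor and ERBB4. Control replicates 1, 2 and 3 gave 5.58, 5.86 and 7.37 CPM, and the Sev replicates gave 21.4, 29.4 and 19.5 CPM. All 3 Sev libraries were above all 3 control libraries, and replicate 2 was the highest of them. The mean rose from 6.27 ± 0.967 CPM (SD, n = 3) to 23.4 ± 5.28 CPM (SD, n = 3). On the log2 scale this was a difference of 1.90 with a standard error of 0.19 (adjusted p = 0.000345, edgeR), or 3.73-fold with a 95% interval from 2.74 to 5.08. The row held 232 to 358 counts per control library and 771 to 1105 per Sev library.

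EREG (ENSG00000124882, chromosome 4, 74365143 to 74388751, plus strand), the gene of epiregulin, a low-affinity ligand with a long-lasting signal, was close to absent in control cells. Its control libraries held 0, 0 and 5 counts, and its Sev libraries held 26, 43 and 21. On the CPM scale the Sev libraries were at 0.690, 1.14 and 0.530, all above the highest control value of 0.103. All 3 Sev libraries and no control library were above the limit of the filter, 0.251 CPM before TMM scaling, so a gene with such counts had to differ to be tested. The fitted log2 fold change of 4.28 (adjusted p = 0.00471, edgeR) is a description for that reason, and its size depends on the few control counts and on the prior count of the fit. Without control replicate 3, the only control library with a count, the Sev mean was at least 10.8-fold higher than 3 counts in each of the other 2, which is no bound for the comparison with all 3.

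AREG (ENSG00000109321, chromosome 4, 74445134 to 74455009, plus strand), the gene of amphiregulin and a neighbor of EREG, had 0 counts in all 6 libraries. A count of 0 allows up to 3 counts, or between 0.0617 and 0.0797 CPM depending on the library, and this limit covers counting error only. The row shows that no fragment was assigned to this gene. Whether fragments were lost at the alignment or counting step was not tested.

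TGFA (ENSG00000163235, chromosome 2, 70447280 to 70554193, minus strand) encodes TGF-alpha, a ligand of the EGF receptor. It was at 222, 277 and 263 CPM in the control libraries and at 189.7, 196 and 177 CPM in the Sev libraries. The groups did not overlap, although control replicate 1 lay nearer to the Sev libraries than to the other control libraries. The mean fell from 254 ± 28.4 CPM (SD, n = 3) to 187 ± 9.95 CPM (SD, n = 3), a log2 difference of −0.44 with a standard error of 0.099 (adjusted p = 0.0092, edgeR), or 0.738-fold with a 95% interval from 0.629 to 0.865. TGFA-IT1, annotated within an intron of TGFA on the same strand, had 22 to 57 counts per library against 6995 to 12771 for TGFA.

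BTC (ENSG00000174808, chromosome 4, 74744759 to 74794686, minus strand), the gene of betacellulin, a ligand of the EGF receptor and ERBB4, held 35 to 79 counts per library. Its control libraries were at 1.87, 1.67 and 1.63 CPM and its Sev libraries at 1.22, 0.932 and 1.29 CPM. The groups did not overlap, but the log2 fold change of −0.58 (standard error 0.22) missed the adjusted limit (adjusted p = 0.06, edgeR). With library size in place of TMM it was −0.72 (adjusted p = 0.0361), and with at least 10 counts required in every library it was −0.59 (adjusted p = 0.0499).

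NRG1 (ENSG00000157168, chromosome 8, 31639386 to 32767959, plus strand), the gene of neuregulin 1, was at 82.5, 55.3 and 50.6 CPM in the control libraries and at 55.6, 64.0 and 52.6 CPM in the Sev libraries. Control replicate 1 stood above the other 5 libraries, which overlapped. The log2 fold change was −0.13 with a 95% interval from −0.55 to 0.29 (adjusted p = 0.595, edgeR), and without control replicate 1 it was 0.11.

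ERBB2 (ENSG00000141736, chromosome 17, 39687914 to 39730426, plus strand), the ligandless receptor, was at 61.8, 55.5 and 58.9 CPM in the control libraries and at 48.6, 55.3 and 49.4 CPM in the Sev libraries. The highest Sev value lay just under the lowest control value. The log2 fold change of −0.20 (95% interval from −0.41 to 0.0053, adjusted p = 0.103, edgeR) did not pass. It passed with library size in place of TMM, at −0.35 (adjusted p = 0.0162, edgeR), a scaling that moved the median of all features to −0.15. It also passed in the 3 settings on FPKM, which carry no TMM scaling either. In these the median of all features was −0.11 and −0.17 with a filter and −0.0089 without one. PGAP3 and MIEN1, which overlap ERBB2 on the opposite strand, were at 650 to 971 and 397 to 579 counts per library, and the sources do not state whether the counting used the strand.

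ERBB3 (ENSG00000065361, chromosome 12, 56076799 to 56103505, plus strand), the neuregulin receptor, was low. It was at 3.62, 2.50 and 3.11 CPM in the control libraries and at 3.0, 3.17 and 2.02 CPM in the Sev libraries, with 80 to 153 counts. The groups overlapped, and the log2 fold change was −0.17 with a 95% interval from −0.72 to 0.37 (adjusted p = 0.578, edgeR). Without Sev replicate 3, the lowest library, it was 0.0056. Its neighbor PA2G4, 814 bases away on the same strand and also called EBP1 for its binding to ERBB3, rose by 0.58 on the log2 scale (adjusted p = 0.00757, edgeR).

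ERRFI1 (ENSG00000116285, chromosome 1, 8004404 to 8026308, minus strand), the inhibitor of receptor kinases, was at 219, 246 and 243 CPM in the control libraries. The Sev libraries were at 438, 502 and 376 CPM, all above every control library, and replicate 2 was again the highest. The mean rose from 236 ± 15.0 CPM (SD, n = 3) to 439 ± 62.7 CPM (SD, n = 3). On the log2 scale this was 0.89 with a standard error of 0.12 (adjusted p = 0.000853, edgeR), or 1.86-fold with a 95% interval from 1.54 to 2.24. ERRFI1-DT, a non-coding gene that starts 430 bases from ERRFI1 on the other strand, also rose, from 1.29 to 2.14 CPM (log2 fold change 0.72, adjusted p = 0.0252, edgeR). The antisense feature ENSG00000284747, which overlaps ERRFI1, had 129 to 187 counts per library against 9251 to 18851 for ERRFI1.

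LRIG1 (ENSG00000144749, chromosome 3, 66378797 to 66501263, minus strand) was at 329, 206 and 309 CPM in the control libraries and at 317, 301 and 291 CPM in the Sev libraries. Control replicate 2 stood below the other 5 libraries. The log2 fold change was 0.11 with a 95% interval from −0.27 to 0.48 (adjusted p = 0.626, edgeR), and its sign turned without control replicate 2 (−0.082) and with library size in place of TMM (−0.041). SLC25A26, which overlaps LRIG1 on the opposite strand, held 1070 to 1413 counts per library against 8164 to 14998 for LRIG1.

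**Figure D2:**
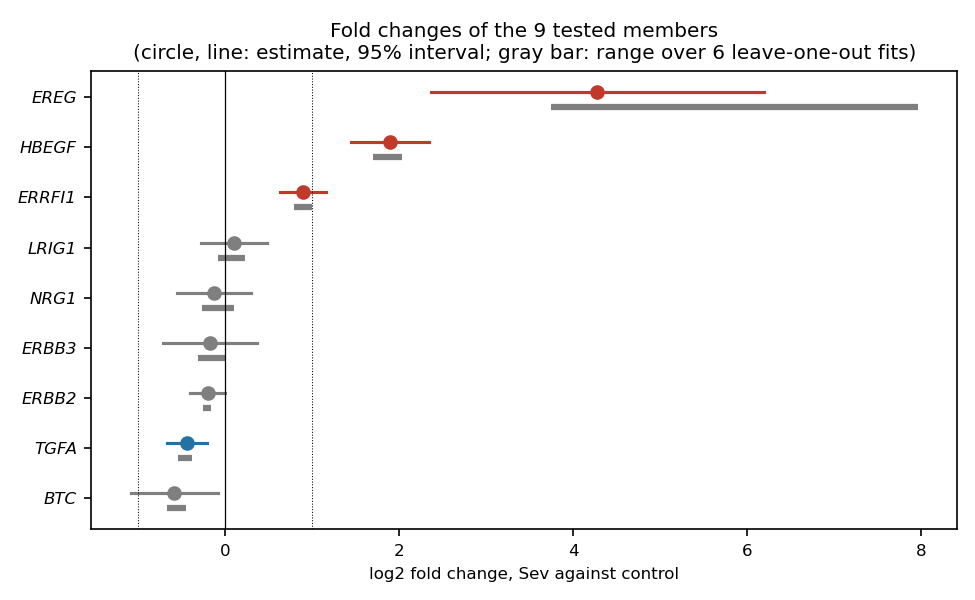
Log2 fold changes of the 9 tested members (x axis, Sev against control, dotted lines at 1 and −1). Circles and lines are estimates and 95% intervals, colored red or blue where the adjusted p-value was under 0.05, and gray bars give the range over the 6 fits that left out 1 library. HBEGF (1.90), EREG (4.28) and ERRFI1 (0.89) lie to the right of 0 and TGFA (−0.44) to the left in every fit, and the far end of the EREG bar is a fit whose control libraries were at 0.

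Levels were compared between members on the deposited FPKM, which divides counts by gene length and library size. In control cells ERRFI1 (47.9 ± 2.14 FPKM), TGFA (43.9 ± 4.06 FPKM) and LRIG1 (34.2 ± 8.57 FPKM, each SD, n = 3) were the most abundant, and the ranges of neighbors in this order overlapped. ERBB2 (4.85 FPKM), NRG1 (2.50 FPKM) and HBEGF (1.78 FPKM) came next, of which the last 2 overlapped. BTC (0.546 FPKM), ERBB3 (0.28 FPKM), EREG (0.00418 FPKM) and AREG (0) were lowest. In Sev-treated cells the mean FPKM order was ERRFI1 (80.5), LRIG1 (33.2), TGFA (29.3), HBEGF (6.0), ERBB2 (3.81), NRG1 (2.05), BTC (0.33), ERBB3 (0.221), EREG (0.1) and AREG (0), and no neighboring ranges overlapped. HBEGF thus stood below ERBB2 and NRG1 by mean level in control cells and above both in Sev-treated cells.

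TGFA made up most of the summed FPKM of the 6 member ligands in both groups. Ligand genes outside the members are not in this sum. Among them EGF was at 2.76 FPKM in control and 2.26 FPKM in Sev-treated cells, and NRG2 at 3.11 and 3.14 FPKM. Within a library, the share of each ligand in the summed FPKM of the 6 ligands needs no scaling between libraries. TGFA held 87.6%, 91.6% and 90.8% in the control libraries and 78.9%, 74.9% and 79.0% in the Sev libraries. HBEGF held 3.60%, 3.18% and 4.16% in the control libraries and 14.6%, 18.5% and 14.3% in the Sev libraries. The ratio of HBEGF to TGFA was 0.0406 ± 0.0056 in control cells and 0.204 ± 0.0365 in Sev-treated cells (SD, n = 3). The ligand sum itself was 44.9, 51.3 and 49.9 FPKM in the control libraries and 37.7, 39.6 and 36.1 FPKM in the Sev libraries. Unlike the shares, the sum depends on scaling between libraries, and FPKM carries no TMM scaling. With limma the median log2 fold change of all features was −0.11 on log2(FPKM + 1) and −0.17 on log2(FPKM + 0.1). It was −0.0089 on log2(FPKM + 1) without a filter. These shares and sums are descriptions without a test, and transcripts do not measure the ligand released by the cells. The ratio of ERRFI1 to ERBB2 was 9.95 ± 1.12 in control cells and 21.1 ± 2.03 in Sev-treated cells.

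**Figure D3:**
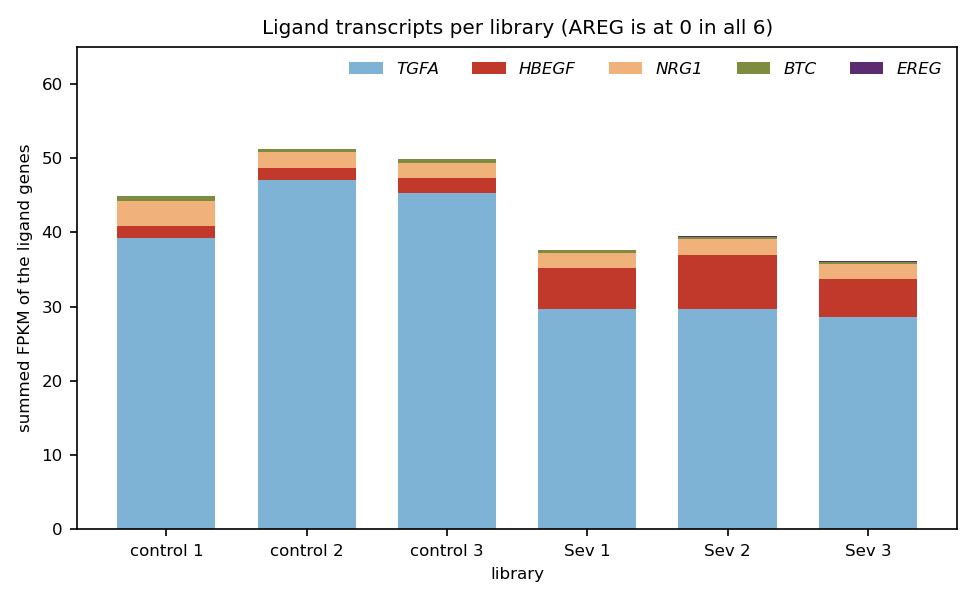
Summed FPKM of the ligand genes in each library (y axis from 0), divided by gene. The HBEGF part of the bars is 14.3% to 18.5% in the Sev libraries and 3.18% to 4.16% in the control libraries, and TGFA is the largest part of every bar.

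The features whose log2 CPM followed HBEGF most closely over the 6 libraries were VGLL2 (Pearson r = 0.9998), BAP1 (0.9994) and the pseudogene RPSAP52 (0.9985). Those closest to TGFA were MTR (0.9974), HMBOX1 (0.9960) and the pseudogene EGLN1P1 (0.9949). With 6 libraries in 2 separated groups, such values describe the group difference and the order of the libraries within it, and they were chosen as the highest among all tested features.

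Of the 7 listed genes of other ligands and receptors of the family, 6 were tested, of which 1 rose and 1 fell, beside 22.1% and 21.5% of all features. EGFR rose, from 136 ± 10.4 to 164 ± 12.3 CPM (log2 fold change 0.27, adjusted p = 0.0451, edgeR), and ERBB4 fell, from 7.42 ± 0.675 to 4.41 ± 0.334 CPM (log2 fold change −0.75, adjusted p = 0.00487, edgeR). The EGFR call was lost in 10 of its 15 alternatives, among them library size only, where the log2 fold change was 0.13 (adjusted p = 0.302). EGF, NRG2 and NRG4 did not pass, with log2 fold changes of −0.15, 0.16 and −0.16. EPGN, the gene next to EREG on chromosome 4, had 6 to 25 counts per control library and 15 to 52 per Sev library, and its log2 fold change of 1.34 did not pass (adjusted p = 0.0951, edgeR). NRG3, which was not tested, had 0 counts in the control libraries and 4, 0 and 3 in the Sev libraries.

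Genes of ligand shedding, 9 in all and all tested, gave 2 that rose and 1 that fell, beside 43.7% of all features that changed. FURIN, a protease that activates the precursors of many secreted and membrane proteins, rose from 133 ± 6.14 to 224 ± 32.7 CPM (log2 fold change 0.75, adjusted p = 0.00155, edgeR). ADAM9, a membrane metalloprotease, was higher by 0.26 on the log2 scale (adjusted p = 0.0255), a call lost in 9 of its 15 alternatives. RHBDF2, an adaptor needed for the maturation of the main ligand sheddase ADAM17, fell by 0.66 on the log2 scale (adjusted p = 0.00671, edgeR). Neither ADAM17 nor ADAM10, which cuts the precursors of EGF and BTC, passed the test. With library size in place of TMM 1 gene of this list rose and 3 fell.

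Among 25 genes of the adaptors and the RAS, MAPK and PI3K cascades 4 rose and 4 fell, beside 22.1% and 21.5% of all features, and their median log2 fold change was 0.035. The GTPase gene NRAS rose by 0.66, the phosphatase gene PTPN11 by 0.42 and the phospholipase gene PLCG1 by 0.37 on the log2 scale. The exchange factor gene SOS2 fell by 0.73. These 4 had adjusted p-values of at most 0.00584 (edgeR), and their groups did not overlap. With library size only, 7 fell.

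Of 15 genes listed for receptor restraint, sorting or degradation 6 rose and 5 fell, beside 22.1% and 21.5% of all features. Their median log2 fold change was 0.15. The list was not divided by whether a gene promotes or opposes receptor loss, so the counts give no direction for the receptors. HGS, which sorts ubiquitinated receptors on endosomes, rose from 94.1 ± 13.3 to 196 ± 19.0 CPM (log2 fold change 1.06, adjusted p = 0.000575, edgeR). SOCS5 rose by 0.79 and its relative SOCS4 fell by 0.50 on the log2 scale. Both relatives of LRIG1 fell, LRIG2 by 0.51 (adjusted p = 0.00292) and LRIG3 by 0.46 (adjusted p = 0.00568, edgeR). STAM2, a partner of HGS, fell by 0.68. The deubiquitinase gene USP8, UBASH3B and EPN1 rose by 0.33 to 0.38, and RNF41, a ubiquitin ligase for ERBB3, fell by 0.31. Of 15 alternatives, the call was lost in 11 for UBASH3B, 5 for USP8, 4 for EPN1 and 3 for RNF41, and UBASH3B kept it in 1 of the 6 fits without 1 library. The 6 that rose became 2 with library size only or on FPKM, and 3 without Sev replicate 1.

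The list of MAPK output holds 10 genes that are commonly read as targets of the cascade below the receptors. Of these 8 rose and 1 fell, beside 22.1% and 21.5% of all features, with a median log2 fold change of 0.70 beside −0.0056. The list was chosen with earlier results of these data known, so this contrast is a description and no test of the list. The rising genes included DUSP4, a MAPK phosphatase, at 64.9, 83.9 and 75.3 CPM in the control libraries and 201, 294 and 179.9 CPM in the Sev libraries (log2 fold change 1.59, adjusted p = 0.000622, edgeR). CCND1, the gene of cyclin D1, rose from 396 ± 47.2 to 781 ± 38.6 CPM (log2 fold change 0.98, adjusted p = 0.000401, edgeR). The receptor tyrosine kinase gene EPHA4 rose by 1.0 on the log2 scale. SPRY4, an inhibitor of the cascade, was at 204, 214 and 203 CPM in control replicates 2, 1 and 3 and at 328, 539 and 250.4 CPM in Sev replicates 1, 2 and 3, with a log2 fold change of 0.85 (adjusted p = 0.0245, edgeR) that was 0.49 without Sev replicate 2. The SPRY4 call was lost in 6 of 15 alternatives, among them each fit without 1 control library (adjusted p from 0.0684 to 0.073, edgeR) and the 3 settings on FPKM. EPHA2 was at 751, 1246 and 582 CPM in the Sev libraries against 459 to 570.3 CPM in the control libraries, and its log2 fold change of 0.75 (adjusted p = 0.0445) was 0.38 without Sev replicate 2 and lost its call in 10 of 15 alternatives. DUSP6, another MAPK phosphatase and the exception in direction, was at 44.2, 38.8 and 39.7 CPM in the control libraries and at 28.4, 31.2 and 21.5 CPM in the Sev libraries (log2 fold change −0.60, adjusted p = 0.012, edgeR). Sev replicate 2 was the highest library for DUSP4, SPRY4 and EPHA2, as it was for HBEGF, EREG and ERRFI1. The count of 8 rising genes became 4 without control replicate 3, and 4 or 5 on FPKM.

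**Figure D4:**
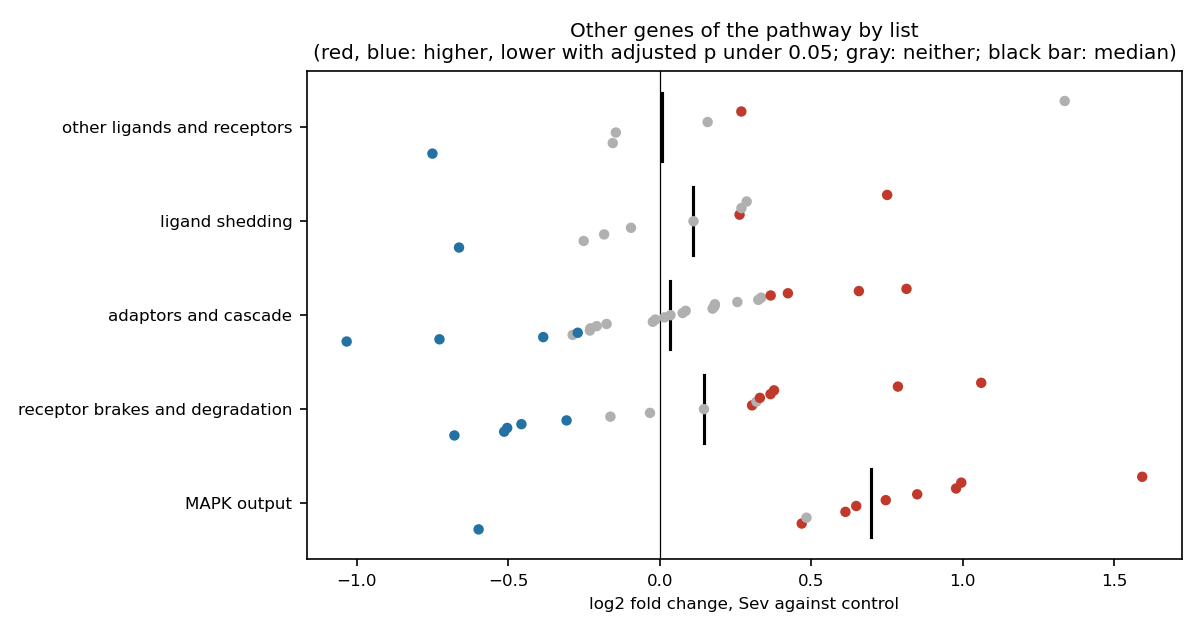
Log2 fold changes (x axis) of the 65 tested genes of the 5 pathway lists, Sev against control. Points are genes, red or blue where they rose or fell with an adjusted p-value under 0.05 and gray otherwise, and black bars are list medians. The 10 MAPK output genes have the median farthest from 0, at 0.70, and DUSP6 is their only gene to the left of 0. The lists were chosen with earlier results of these data known.

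The libraries held between 38624292 and 46318311 counts. Libraries of 1 group differed beyond counting error, at an unadjusted p-value under 0.05, in 51.8% to 69.3% of 13668 abundant genes. The first principal component took 69.0% of the variance and parted the groups, and the second, with 10.0%, set Sev replicates 2 and 3 on opposite sides. Markers of glial and glioma cells summed to between 7854 and 9386 CPM, most of it VIM, with GFAP and NES also present in every library. Within this list of 9 the sum hides changes in both directions. SOX2 (log2 fold change −0.72), S100B (−1.10) and OLIG2 (−1.99) fell and CD44 (0.97) rose, with adjusted p-values of at most 0.00215 (edgeR), and the other 5 did not pass. The 5 epithelial markers were each under 1 CPM in all libraries, and AIF1 of microglia and STMN2 of neurons were at 0 in all. The summed microglia and leukocyte markers were at 6.18 to 8.46 CPM in the control libraries and 12.1 to 14.2 CPM in the Sev libraries, the neuronal markers at 85.6 to 116 and 149.7 to 164 CPM, most of it TUBB3, and the endothelial markers at 8.13 to 10.3 and 9.21 to 12.7 CPM. Within these lists ITGAM (2, 3 and 0 counts in the control libraries, 69, 33 and 130 in the Sev libraries) and CSF1R (log2 fold change 0.72) of the microglia and leukocyte list rose. So did PECAM1 (0.92) and CLDN5 (1.14) of endothelium and TUBB3 (0.68) and SYT1 (0.55) of neurons, all with adjusted p-values of at most 0.0409 (edgeR), ITGAM again passing the filter through the Sev libraries alone. The other markers of these lists did not pass or were not tested, among them CDH5 (−0.077) and VWF (0.039) of endothelium and RBFOX3 (−0.20) of neurons, and PTPRC was at 2, 0 and 12 counts in the control libraries and 2, 4 and 5 in the Sev libraries. The part of these differences in the results above was not tested. The libraries are of a single cell line, and in bulk RNA fewer expressing cells and less RNA per cell cannot be told apart.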

How the data were processed

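Total RNA of U251 cells was depleted of ribosomal RNA and sequenced with strand-specific adapters. The authors deposited raw counts per gene, without normalization, and FPKM values per gene, which correct the counts for gene length and depth. In 5983 abundant features both tables implied the same gene length in all libraries (highest coefficient of variation 1.08%). The submitters' processing notes name bcl2fastq 2.19, featureCounts and hg18. The aligner, the annotation and the use of strand are not given in the sources used here, and 58457 of 60564 Ensembl identifiers in the tables are in GENCODE 29, an annotation of the newer build GRCh38. The build behind the counts is therefore uncertain. Positions were joined by Ensembl identifier from GENCODE 29 on GRCh38, not taken from the files.

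Counts were filtered with filterByExpr, normalized by TMM and tested with edgeR 4.0.16 (glmQLFit, glmQLFTest, R 4.3.3), 3 libraries against 3, with 2 groups, no covariate and Benjamini-Hochberg adjustment. An exact permutation test of this design cannot go under 0.1. Standard errors were derived from the F statistic. The script was checked on simulated data. Alternatives used DESeq2 1.42.0, limma 3.58.1 on FPKM, other scalings and filters, a replicate block and each library left out. Members and lists were chosen with earlier results of these data known. Genes named beside the members were, in each list, up to 5 per direction by fold change among those called, the whole list of other ligands and receptors, nearby genes, and the 3 features most correlated with the member of smallest p in each direction. ADAM10, ADAM17, NRG3 and cell type markers are named outside this rule. Some genes of the cascade list are counted but not reported by name here.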

Additional observations from a re-analysis of the deposited data

How the results depend on the processing

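HBEGF, ERRFI1 and TGFA kept their direction and their call in all 15 alternatives, with log2 fold changes from 1.33 to 2.03, 0.73 to 1.0 and −0.58 to −0.38. EREG was called higher in the 12 that could test it. Its log2 fold change ran from 0.13 on log2(FPKM + 1) without a filter to 7.96 without control replicate 3, a fit whose control libraries were at 0 and whose value is no bound. Where a filter was used, EREG passed it through the Sev libraries alone, so these calls add no support. EREG had too few counts or too low an FPKM for 3 alternatives. With library size in place of TMM, which moved the median log2 fold change of all features from −0.0056 to −0.15, 4665 features rose and 7502 fell in place of 6094 and 5920, 3 members fell, and 13 pathway genes rose in place of 21. With at least 10 counts in every library 2 members fell. With limma on log2(FPKM + 1), on log2(FPKM + 0.1) and on log2(FPKM + 1) without a filter, 2 members fell in each, and 12, 12 and 11 pathway genes rose. The first 2 of these gave 3676 and 3623 rising features. Over the fits that left out 1 library, 13 to 19 pathway genes rose, the lowest without control replicate 3. The members called were 3 rising and 1 falling in each of these 6 fits.

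LRIG1 changed sign at −0.041 with library size only, at −0.0095, −0.0088 and −0.0095 in the 3 FPKM settings, and ran from −0.082 to 0.23 over the fits without 1 library. NRG1 ran from −0.27 to 0.11, ERBB3 from −0.31 to 0.0056 and NRG4 from −0.53 to 0.24 over those fits. None of these 4 passed the test in any alternative. The cause of these changes was not tested. Same-numbered libraries did not deviate together (r between −0.0072 and 0.027), which cannot tell whether they were prepared or treated together. With the replicate number as a block 5228 features rose and 5021 fell, with 3 members rising, 1 falling, and 17 and 10 pathway genes. The tested members with the fewest counts were EREG, BTC and ERBB3, with at most 43, 79 and 153 counts in a library.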
